A study of Ovis aries with 19 samples.

Results

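Glycogen is the branched glucose store of muscle and liver, and the 9 genes described here encode proteins that start it, extend it, branch it, break it down or control that balance. They were taken by symbol from the first column of the deposited table, GYG1, GYS1, GYS2, GBE1, PYGM, PYGL, EPM2A, PPP1R3A and PPP1R3C, and all 9 were found among its 28524 gene identifiers. The study set female sheep exposed to testosterone before birth against control females, by sequencing RNA from each animal's liver and muscle. Of the 10 sheep, 5 control and 5 treated gave muscle libraries, and 9 of them, 4 control and 5 treated, also gave liver libraries. The labels state sex, treatment, tissue and sheep number, and they give no breed, age, testosterone dose, muscle name or feeding state. Each library came from 1 sheep, so the replicates are animals.

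Glycogen synthesis starts on glycogenin, which attaches the first glucose units to itself. Glycogen synthase then lengthens the chains and the branching enzyme adds the branch points. Glycogen phosphorylase releases glucose-1-phosphate from the chain ends. Synthase and phosphorylase each have a muscle form and a liver form, encoded by separate genes. Muscle uses its glycogen for its own contraction, while the liver releases the glucose into the blood. Protein phosphatase 1 activates synthase and inactivates phosphorylase, and targeting subunits bring it to glycogen. Laforin removes phosphate from glycogen, and its loss causes Lafora disease, in which poorly branched glycogen accumulates.

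Values are normalized read counts, that is, reads per gene divided by a size factor of the library. The depth was 8455563 to 14331578 reads in the muscle libraries and 10236610 to 16046301 in the liver libraries. The tissues were scaled separately, so levels were compared within a tissue. The tissue labels matched the markers, since 7 skeletal muscle markers summed to 732083.76 or more in every muscle library but to no more than 312 in any liver library. One muscle library stood apart. In treated sheep 48 the 10 most abundant genes took 13.6% of the reads, against 16.6% to 20.1% in the other 9 muscle libraries. For the members in which its muscle value was the lowest or the highest, the fold change is also given without it. Where a test is given, it is limma on log2(value + 1) over all genes with a mean of at least 10, with Benjamini-Hochberg adjusted p-values called at 0.05.

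The tissue forms separated as their names say, in treated and control sheep alike. In muscle at least 99.965% of the reads of both synthase genes belonged to GYS1, the muscle synthase, in every library. GYS2, the liver synthase, had 3 reads in all control muscle and 2 in all treated muscle. It was at 0 in 6 of 10 muscle libraries, and in these 6 a count of 3 reads would have been a normalized count of 2.56 to 4.10. In liver GYS1 took 8.60% ± 3.80 (SD, n = 4) of the synthase reads of control sheep and 8.97% ± 6.88 (SD, n = 5) of those of treated sheep. That share ranged from 2.69% in treated sheep 255 to 18.2% in treated sheep 185, so it differed more among treated sheep than between the groups. Of the reads of 3 phosphorylase genes, PYGM, the muscle form, took at least 99.5% in each muscle library. PYGL, the liver form, took at least 97.5% in each liver library, and PYGB, the brain form, took 1.19% ± 0.235 (SD, n = 4) among control livers and 1.47% ± 0.617 (SD, n = 5) among treated livers. These shares count reads and are not corrected for gene length, so they serve to compare libraries and not the amounts of the enzymes. PYGM had 3.87 to 14.1 in control and 3.25 to 13.9 in treated liver, from 44 and 34 reads in all, and was not tested there.

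PPP1R3A, which targets protein phosphatase 1 to glycogen in striated muscle, had 10028 to 16056 in muscle. It had 3 reads in 1 control liver library and 0 reads in the other 8 liver libraries. Glycogenin did not separate in this way. GYG1 held 98.6% ± 0.780 (SD, n = 5) of the glycogenin reads of control muscle and 99.0% ± 0.558 (SD, n = 5) of those of treated muscle, but 51.7% ± 26.7 (SD, n = 4) in control liver and 54.7% ± 17.9 (SD, n = 5) in treated liver. In control liver the share ran from 33.6% to 90.7%, and the normalized count of the second glycogenin gene, GYG2, ran from 14.9 to 250.4 there. With these patterns 8 members passed the filter in muscle, all but GYS2, and 7 passed in liver, all but PYGM and PPP1R3A.

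The comparison in muscle asked which glycogen genes differed after prenatal testosterone. EPM2A, the laforin gene, had the clearest difference of the 8 members tested. The control libraries of sheep 98, 131, 132, 179 and 201 had 1170.1, 967, 1009, 1088 and 1137. The treated libraries of sheep 48, 63, 185, 233 and 255 had 770.1, 677, 622, 808 and 711. All 5 treated sheep thus lay below the lowest control, and the groups did not overlap. Among all 12966 genes tested in muscle, 1.53% had ranges that parted in this direction, and EPM2A was the only member to do so. In the other direction 1.76% of all genes and 0 members parted.

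The group means of EPM2A were 1074 ± 85.5 (SD, n = 5) and 717 ± 73.6 (SD, n = 5), a treated level of 0.668 times control. By limma its log2 fold change was -0.58 ± 0.11 (SE), with an unadjusted p of 0.000148, the 16th smallest of all genes, and an adjusted p of 0.104, which misses the threshold. DESeq2 gave an adjusted p of 0.000779 and called it, as the only member among its 259 calls, which are 2.00% of the genes (0.733% called lower). EdgeR gave 0.118 and did not call it. EPM2A was already known to have a small p in these data when the members were chosen, so its rank describes the gene and adds no support. Leaving out 1 sheep at a time moved its log2 fold change between -0.63 and -0.53, and the unadjusted limma p stayed under 0.05 each time.

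**Figure D1:**
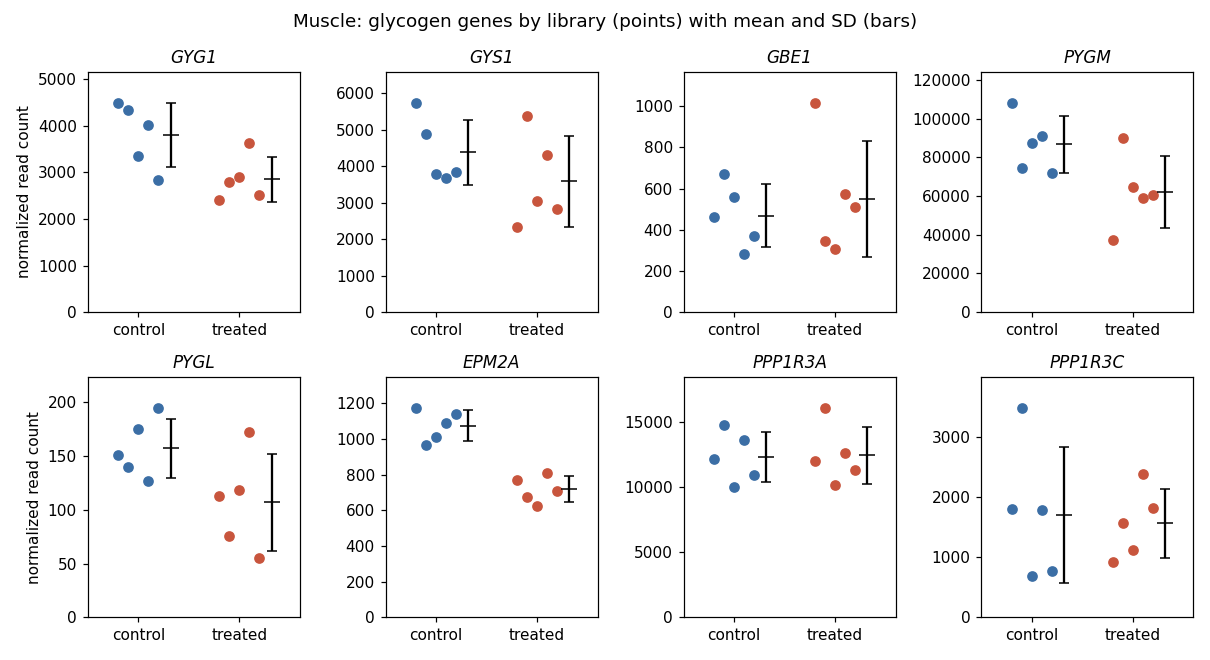
Normalized read counts (vertical axes, linear from 0) of the 8 glycogen genes measured in muscle, with 1 point per sheep, blue for 5 control and red for 5 treated sheep, and black bars for the mean and SD. EPM2A is the only gene whose groups do not overlap, with controls from 967 to 1170.1 and treated sheep from 622 to 808.

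Of the genes that build glycogen, GYG1, the glycogenin gene, had 4487, 4342, 3347, 4012 and 2844 in control muscle, in the sheep order used above. Treated muscle had 2407, 2786, 2900.4, 3628 and 2522. Control sheep 132 and 201 lay within the treated range, and all 5 treated sheep were below the control mean. The means were 3806 ± 695 (SD, n = 5) and 2849 ± 478 (SD, n = 5), with a limma log2 fold change of -0.41 ± 0.16 (SE), an unadjusted p of 0.0208 and an adjusted p of 0.270. Without treated sheep 48 it was -0.36. GYS1, the muscle synthase, had 5731, 4891, 3788, 3676 and 3839 in control and 2326, 5389.9, 3058, 4315 and 2841 in treated muscle. Here 3 treated sheep lay below every control, while treated sheep 63 was above all controls but sheep 98. Its limma log2 fold change was -0.33 ± 0.22 (SE), with an adjusted p of 0.505, and it was -0.20 without treated sheep 48. GBE1, the branching enzyme, had 282 to 670.1 in control and 307 to 1015 in treated muscle, with the highest value in treated sheep 48. Its log2 fold change of 0.16 ± 0.30 (SE) became -0.096 without that sheep.

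Of the phosphorylases, PYGM had 108041, 74693, 87723, 91306 and 71723 in control muscle and 37474, 89860.2, 64485, 59283 and 60342 in treated muscle. Sheep 48, 185, 233 and 255 lay below every control and treated sheep 63 lay among them. The means were 86697 ± 14545 (SD, n = 5) and 62289 ± 18665 (SD, n = 5). The limma log2 fold change was -0.52 ± 0.25 (SE), with an unadjusted p of 0.0631 and an adjusted p of 0.377, and it was -0.35 without treated sheep 48. PYGL, the liver form, had in muscle 151, 139.6, 175, 127 and 194 in control and 113, 76.1, 118, 172 and 55.3 in treated sheep. Treated sheep 233 alone reached the control range. Its limma log2 fold change was -0.64 ± 0.26 (SE), with an unadjusted p of 0.0273 and an adjusted p of 0.291.

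The 2 targeting subunits gave no such difference. PPP1R3A averaged 12307 ± 1935 (SD, n = 5) among controls and 12459.5 ± 2205 (SD, n = 5) among treated sheep, with a log2 fold change of 0.02 ± 0.17 (SE). PPP1R3C, also called protein targeting to glycogen, varied most among controls, from 687 in sheep 132 to 3470.5 in sheep 131, and the treated sheep, from 921 to 2375, lay within that range. Its limma log2 fold change was 0.06 ± 0.39 (SE) while its mean went from 1699 to 1564, so the sign depends on the scale.

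In muscle, then, 0 of 8 members passed the limma threshold after adjustment, where 1 of 12966 genes did (0.00771%), and edgeR also called 0 members. At an unadjusted limma p under 0.05, 3 members (EPM2A, GYG1 and PYGL) were lower and 0 were higher, against 7.00% of all genes lower, 7.37% higher and 14.4% in either direction. The median log2 fold change over the 8 members was -0.37 and over all genes -0.013. Leaving out 1 sheep at a time gave 2 to 4 such members, and EPM2A was among them each time. GYG1 was not among them without control sheep 98, control sheep 131 or treated sheep 48, and PYGL was not without any 1 of the control sheep 132 and 201 and the treated sheep 63 and 255. GYS1 and PYGM were among them without treated sheep 63. With edgeR the unadjusted p of PYGL was 0.0551, and with DESeq2 PYGM was added to the 3. Without treated sheep 48 the median was -0.27.

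Muscle fibre types differ in glycogen handling, and fast fibres in particular are rich in phosphorylase, so the fibre markers are given beside these values. The summed level of 7 fast fibre markers (MYH1, MYH2, MYLPF, TNNT3, TNNI2, TNNC2 and ATP2A1) was 1254501 to 1496993 in control and 682158 to 1281163 in treated muscle. MYH1 was the largest part of this sum in every library, with 612656 to 785343 in control and 237059 to 649586 in treated muscle, the lowest in sheep 48. All 7 markers had a log2 fold change below 0, with a median of -0.27, and 0 had an unadjusted limma p under 0.05. The sum in treated sheep 48 was 682158, with 993007 in sheep 185 and 1009852 in sheep 255. The summed level of the 6 slow fibre markers listed was 62620.0 to 198338 in control and 87698 to 119248 in treated muscle, with a median log2 fold change of -0.0038. In treated sheep 63 and 233 the fast marker sums were 1281163 and 1229492, beside 1254501 in the lowest control. EPM2A was 677 and 808 in these sheep, and its lowest control was 967. PYGM was 89860.2 in sheep 63, within the control range, and 59283 in sheep 233, below every control. The part of fibre markers in the muscle differences was not tested, and in whole tissue fewer fibres of a type cannot be told apart from less RNA per fibre.

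**Figure D2:**
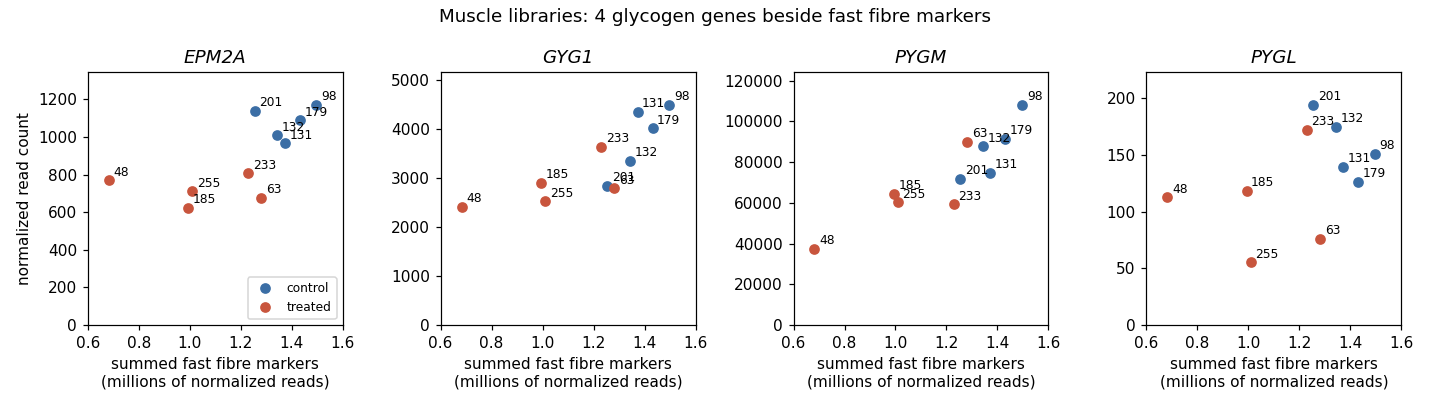
Normalized read counts in muscle (vertical axes, linear from 0) of EPM2A, GYG1, PYGM and PYGL against the summed normalized reads of 7 fast fibre markers (horizontal axes, in units of 1000000 and starting above 0), with 1 numbered point per sheep, blue for control and red for treated. Treated sheep 48 has the lowest marker sum, at 682158, and the lowest PYGM and GYG1, while EPM2A of treated sheep 63 is at 677 beside a marker sum of 1281163.

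Some markers of other cell types had an unadjusted limma p under 0.05. Over all genes tested such a p was found for 7.00% lower and 7.37% higher in muscle. In liver the shares were 2.17% and 1.82%. Of the adipocyte markers 3 of 6 tested in muscle and 3 of 5 tested in liver were lower at an unadjusted limma p under 0.05. Their summed level was 1419 to 2966 in control and 1184 to 2621 in treated muscle, and 898 to 1581 and 566 to 2268 in liver. The median sum was 2455 in control and 1553 in treated muscle. In liver it was higher in treated sheep, at 1532 against 1391 in control sheep. Of the T and NK cell markers 1 of 5 tested in muscle and 2 of 6 tested in liver were higher. The summed level of the T and NK cell markers was 107 to 153 in control and 141 to 253 in treated muscle. In liver it was 177 to 349 in control and 192 to 510 in treated sheep, so the groups overlapped there. Of the endothelial markers 1 of 6 was lower in muscle, and of the skeletal muscle markers 1 of 3 tested was lower in liver. In the fibroblast, macrophage, cholangiocyte, hepatocyte and slow and fast fibre lists 0 markers had such a p in either tissue by limma, and the red blood cell markers did not pass the filter. Their part in the values of the glycogen genes was not tested.

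Genes nearest to EPM2A, GYG1 and PYGL in muscle were found by the root mean square difference of log2 values over the 10 libraries, each gene centred on its mean. For EPM2A they were FMO5, a flavin monooxygenase gene, at 0.112, USP34, a ubiquitin protease gene, at 0.123, and TFB1M, a mitochondrial rRNA methyltransferase gene, at 0.130. The spread of EPM2A itself was 0.315 on that measure. For GYG1 they were TSPAN3, POU6F1 and OAT, at 0.117 to 0.124 beside its own spread of 0.307. For PYGL, with a spread of 0.531, the nearest was GINS4 at 0.180, followed by GPR1 and KLF4. The level of GINS4 was close to the filter at a mean of 10, with means of 12.1 in control and 7.95 in treated muscle. These are the closest of 12965 genes in few libraries and describe these animals only.

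In liver the same comparison was made between 4 control and 5 treated sheep. PYGL, the liver phosphorylase, had 3363, 2904, 3062 and 3322 in control sheep 98, 131, 179 and 201. Treated sheep 48, 63, 185, 233 and 255 had 2250.0, 2593, 2319, 2966 and 2841. Treated sheep 233 alone exceeded the lowest control, and all 5 treated sheep were below the control mean. The means were 3162 ± 218 (SD, n = 4) and 2594 ± 314 (SD, n = 5). By limma the log2 fold change was -0.29 ± 0.20 (SE), with an unadjusted p of 0.169 and an adjusted p of 0.999.

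GYS2, the liver synthase, had 1028, 909, 1856 and 1441 in control and 1719, 1187, 1007, 708 and 2392 in treated liver. Both the lowest and the highest value belonged to treated sheep, 233 and 255. Its log2 fold change was 0.03 ± 0.35 (SE), and it was -0.0023 after rescaling by trimmed means. GYS1 had 70.5 to 151 in control and 66.1 to 225 in treated liver, with a log2 fold change of -0.14 ± 0.40 (SE). GBE1 had 695, 1083, 1264 and 566 in control and 1239, 663, 593, 976 and 1646 in treated liver, and its order among treated sheep matched that of GYS2 at the top, where sheep 255 and then sheep 48 stood highest for both. GYG1 had 129 ± 13.4 (SD, n = 4) and 109 ± 21.8 (SD, n = 5), with a log2 fold change of -0.25 ± 0.24 (SE).

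**Figure D3:**
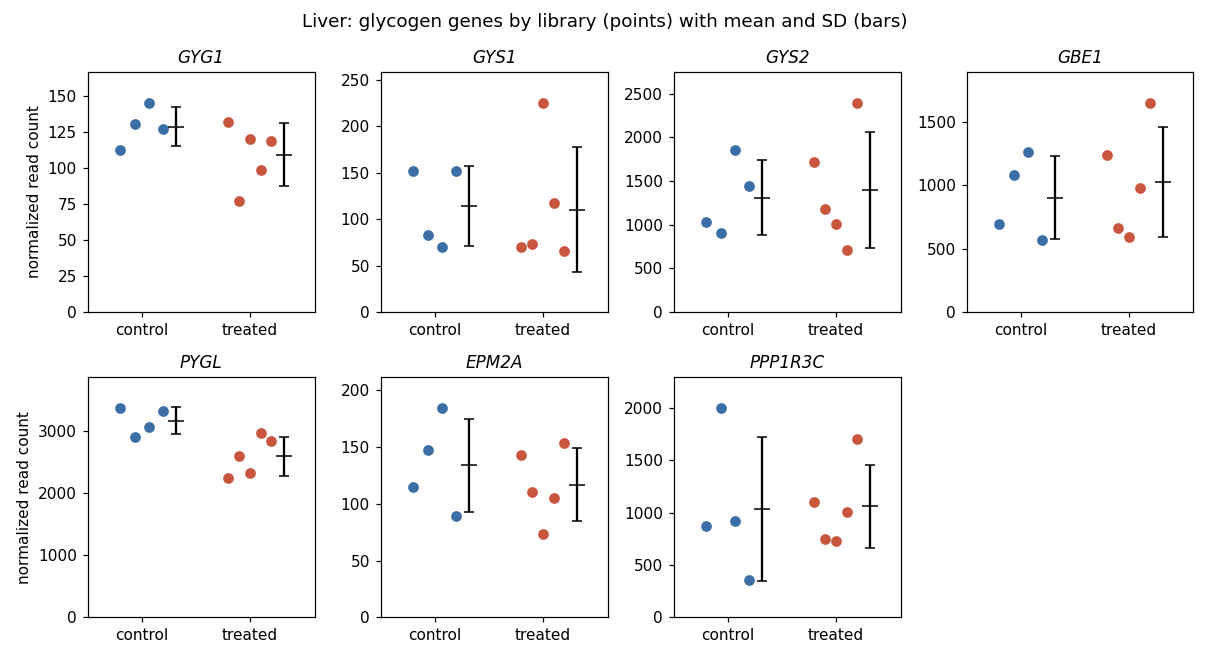
Normalized read counts (vertical axes, linear from 0) of the 7 glycogen genes measured in liver, with 1 point per sheep, blue for 4 control and red for 5 treated sheep, and black bars for the mean and SD. The groups overlap for every gene, and for PYGL 4 of 5 treated sheep lie below the lowest control of 2904.

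EPM2A in liver had 115, 147, 184 and 89.0 in control and 143, 111, 73.1, 105 and 154 in treated sheep, with overlapping groups and a limma log2 fold change of -0.19 ± 0.30 (SE). PPP1R3C had 869.7, 1994, 920.5 and 357 in control and 1103, 751, 734, 1002 and 1705 in treated liver. Control sheep 131 and 201 were its highest and lowest, and the treated sheep lay between them. Its log2 fold change was 0.21 ± 0.43 (SE), and it ranged from -0.21 to 0.61 when each sheep was left out. By limma 0 of 7 members passed in liver after adjustment, as did 0.00733% of 13640 genes. At an unadjusted p under 0.05 the members numbered 0, against 3.99% of all genes. EdgeR and DESeq2 called 0 members as well, where DESeq2 called 0.235% of the genes (0.110% lower). The groups overlapped for all 7, while 0.682% of all genes parted with treated sheep lower and 0.858% with treated sheep higher.

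The treatment effect in muscle minus that in liver was tested for the 6 members past the filter in both tissues, and 0 passed by limma after adjustment, as did 0.00855% of 11697 genes. At an unadjusted p under 0.05 there were 0 members, against 4.90% of all genes (2.34% below 0 and 2.56% above). EdgeR and DESeq2 also called 0 members, where DESeq2 called 0.120% of the genes (0.0769% below 0). For EPM2A the difference was -0.40 ± 0.29 (SE) with an adjusted p of 0.973, and for PYGL -0.35 ± 0.32 (SE). That EPM2A had a small p in muscle and not in liver is therefore not shown to be a difference between the tissues. The difference for GBE1 was 0.0064 ± 0.48 (SE), for GYG1 -0.16 ± 0.25 (SE), for GYS1 -0.19 ± 0.45 (SE) and for PPP1R3C -0.16 ± 0.62 (SE).

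**Figure D4:**
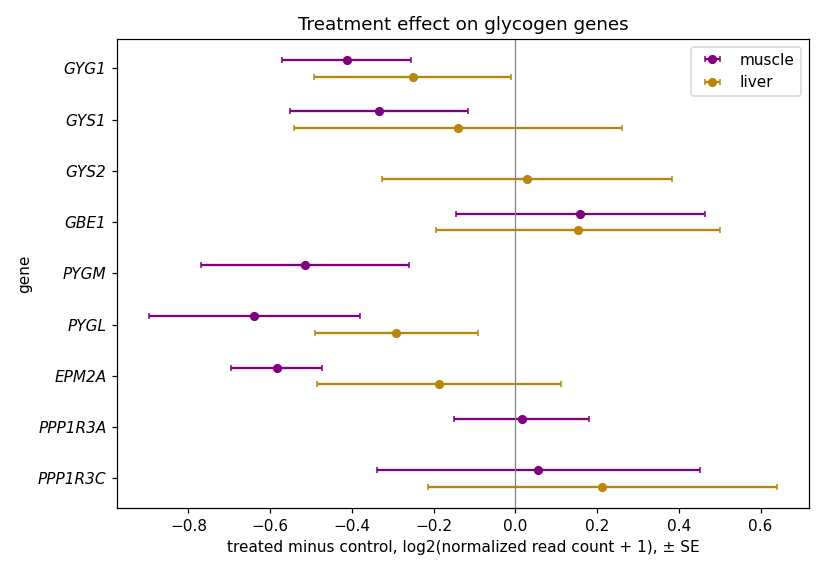
Log2 fold change of treated over control sheep (horizontal axis, on log2(normalized read count + 1), with bars for the SE from limma) for the 9 glycogen genes, purple for muscle and gold for liver, with no point where a gene did not pass the filter. The muscle bar of EPM2A, at -0.58 ± 0.11, lies farthest from 0 in relation to its error.

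Other genes of glycogen handling were taken from a list of 42 symbols, of which 41 were found and 40 passed the filter in a tissue. In muscle 7 of 39 tested were lower and 1 was higher at an unadjusted limma p under 0.05, against 7.00% of all genes lower and 7.37% higher. After adjustment limma and edgeR called 0 and DESeq2 called 1, where it called 2.00% of all genes. The median log2 fold change over the 39 was -0.12. The 7 lower genes included 2 subunits of phosphorylase kinase, which activates phosphorylase. PHKB, its regulatory beta subunit, had 8810.4 to 11817 in control and 5125 to 7638 in treated muscle, so the groups did not overlap, as for 1.53% of all genes. Its limma log2 fold change was -0.63 ± 0.15 (SE), with an adjusted p of 0.145, and it was the gene called by DESeq2, with an adjusted p of 0.00293. PHKA1, the muscle alpha subunit, had means of 6749 and 4811, and PHKG1, the muscle catalytic subunit, had 1784 and 1662 with a log2 fold change of -0.11 ± 0.17 (SE).

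The other 5 lower genes have several roles. PGM1, which interconverts glucose-1-phosphate and glucose-6-phosphate, had means of 11145 and 7833, and UGP2, which makes the UDP-glucose used by synthase, had 7735 and 5958. PPP1CB, a catalytic subunit of the phosphatase, had 5604 to 7063 in control and 3811 to 5517 in treated muscle, without overlap. PPP1R2, an inhibitor of that phosphatase, had means of 5626 and 4233. PRKAB2, a glycogen-binding subunit of AMP-activated kinase, had 5168 and 3555. Their limma adjusted p-values lay between 0.190 and 0.289. Of the list, only PHKB and PPP1CB had groups that parted in muscle. Over all muscle genes 1.53% parted with treated sheep lower and 1.76% with treated sheep higher. The only higher gene was PPP1R3B, a targeting subunit best known from liver, with 158 ± 66.6 (SD, n = 5) and 281 ± 117 (SD, n = 5) and a limma adjusted p of 0.270. Without treated sheep 185 or control sheep 98 the count of lower genes went from 7 to 4, and without control sheep 179 or 201 it was 9. The count of higher genes was 0 without control sheep 132, control sheep 201 or treated sheep 255, and 2 without control sheep 131, control sheep 179 or treated sheep 233. NHLRC1, the malin ligase that partners laforin, had 74.3 and 65.5, GSK3B, a kinase that inhibits synthase, 531 and 476, and PYGB 50.4 and 53.5, each with an unadjusted limma p above 0.2.

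In liver 3 of 37 genes of the list were lower and 0 higher at an unadjusted limma p under 0.05, against 2.17% of all genes lower and 1.82% higher, and 0 passed after adjustment by limma, edgeR or DESeq2. STBD1, which binds glycogen and links it to autophagy, had 1670.3, 2777, 1968 and 1484 in control and 1467, 1334, 690.3, 738 and 1262 in treated liver. All treated sheep were below the lowest control, with treated sheep 48 at 1467 and control sheep 201 at 1484 the closest. STBD1 was the only gene of the list whose groups parted in liver. Over all liver genes 0.682% parted with treated sheep lower and 0.858% with treated sheep higher. The limma log2 fold change of STBD1 was -0.87 ± 0.30 (SE) with an adjusted p of 0.976. In muscle STBD1 had means of 1627 and 1692. PHKA2, the liver alpha subunit of phosphorylase kinase, had 281 and 175 in liver, and SLC37A4, the glucose-6-phosphate carrier, 1225 and 770.0. That count of 3 was 1 without any 1 of the control sheep 98 and 131 and the treated sheep 185 and 233. Without sheep 185, 2 genes were higher.

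PPP1R3B had opposite directions in the 2 tissues. In liver it had 2939, 3768, 1970 and 1088 in control and 1928, 1543, 1400.2, 827 and 1268 in treated sheep. Its groups overlapped in both tissues. The liver log2 fold change was -0.72 ± 0.36 (SE), with an unadjusted limma p of 0.0706. In muscle the log2 fold change was 0.82 ± 0.31 (SE). The difference of muscle minus liver was 1.53 ± 0.50 (SE), with an unadjusted limma p of 0.00576 and an adjusted p of 0.836, so it was not called. The signs were also opposite for STBD1 (0.06 ± 0.18 in muscle and -0.87 ± 0.30 in liver, SE) and PHKA2 (0.23 ± 0.28 and -0.75 ± 0.32, SE). Both muscle values were smaller than their SE, so their signs in muscle are not established. The differences of muscle minus liver for STBD1 and PHKA2 had unadjusted limma p-values of 0.0126 and 0.0319, and adjusted p-values of 0.897 and 0.963. Over the list, 3 of 36 differences were above 0 and 2 below 0 at an unadjusted limma p under 0.05, against 2.56% and 2.34% of all genes, and 0 passed after adjustment by limma, edgeR or DESeq2. Without 1 sheep the count below 0 ran from 0, without sheep 98, to 5, without sheep 179, and the count above 0 from 2 to 5.

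**Figure D5:**
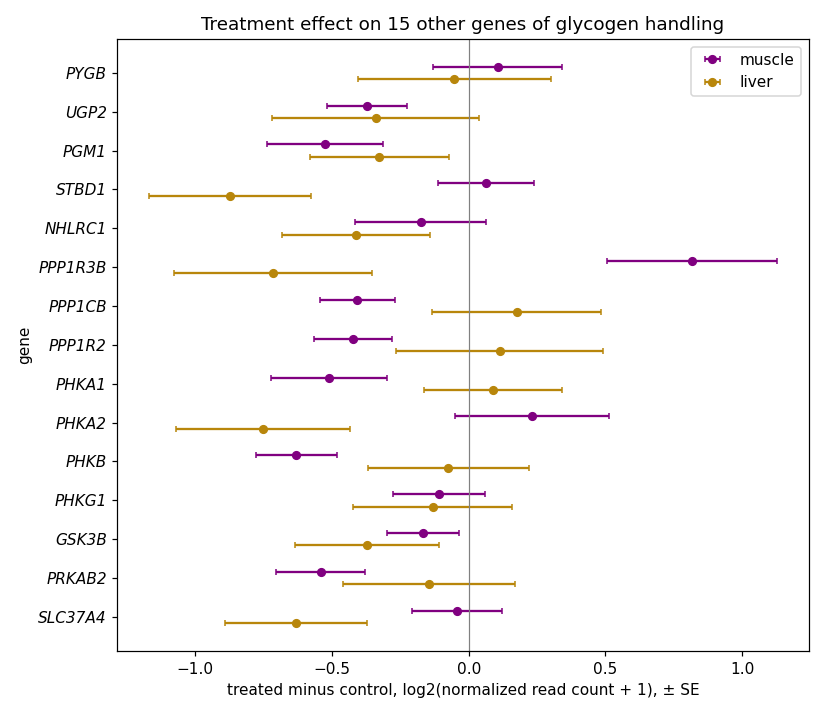
Log2 fold change of treated over control sheep (horizontal axis, on log2(normalized read count + 1), with bars for the SE from limma) for the 15 other genes of glycogen handling that the text names by rule, purple for muscle and gold for liver. In muscle PHKB lies at -0.63 and PPP1R3B at 0.82, and in liver PPP1R3B lies at -0.72 and STBD1 at -0.87.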

How the data were processed

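The authors deposited a signal for each gene in each library, which is a normalized read count. Per the submitters' processing notes, the tools were Trimmomatic, STAR and featureCounts 1.6.1. Which build, annotation and strand setting the authors used is not given in the sources used here, so no coordinates are printed. All 9 members matched a symbol of the RefSeq gene table for ARS-UI_Ramb_v3.0. Within a library 100% of the values were whole multiples of 1 read within 0.01 read, and the scaling equalled median-of-ratios size factors within each tissue.

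Genes with a mean of at least 10 were tested with limma 3.58.1 in R 4.3.3 on log2(value + 1), each tissue on its own. Such fold changes understate low genes. As alternatives, DESeq2 1.42.0 and edgeR 4.0.16 were run on the recovered reads, and the procedure was tested on simulated data. The sheep number ties a liver library to the muscle library of 1 animal (median correlation of deviations 0.177 within 9 sheep, lowest 0.103, and -0.0194 between sheep). Of these 9 liver libraries, 7 correlated best with the muscle library of their own sheep. No 2 libraries of a group agreed within sampling noise, over 36 pairs.

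The members and lists were chosen with earlier results of these data known. All 9 members are given in both tissues. Of the wider list, genes with an unadjusted limma p under 0.05 in a tissue were named, with UGP2, PYGB, NHLRC1, PPP1R3B, PHKA1, PHKG1 and GSK3B in any case. The other genes of the list enter its counts only. A few genes of glycogen handling are not reported here and were left out of the list. The 3 nearest genes were named for members with an unadjusted p under 0.05. Markers of other cell types were listed for both tissues. Gene lengths were not used here, so shares of reads among related genes compare libraries and not amounts of transcript.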

Additional observations from a re-analysis of the deposited data

Results flagged for a closer look

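Single libraries that stood far from the rest of their group on the log2 scale were sought in 74 groups of 4 or 5 libraries, the named genes in each tissue, and 2 were found. Chance alone gives about 1 group in 20. In treated liver PHKA1 was 112 in sheep 185, while the other 4 treated sheep had 67.2 to 76.7. SLC37A4 was 1048 in treated sheep 255, with 659 to 732 in the others. None of the 9 members was among these, and no member or listed gene had a called difference between the tissues or groups that parted in opposite directions.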

How the results depend on the processing

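Tried in turn were a pseudocount of 0.25 or 4, TMM rescaling, no filter or a minimum mean of 50, edgeR, DESeq2, array weights, 1 fit of all libraries, the sheep as replicate block and each sheep left out. Over all genes limma called 1 gene in each comparison. In muscle this was 0 with a pseudocount of 0.25 or a mean of at least 50, 259 with DESeq2, and 0 to 4 without 1 sheep. In liver it was 0 with a mean of at least 50, 32 with DESeq2, 2 with array weights and 9 with 1 fit. For the difference between tissues it was 0 with a pseudocount of 4 or no filter, 14 with DESeq2, 3 with array weights and 0 to 1 without 1 sheep. The replicate block left that count at 1 and EPM2A uncalled (-0.40, adjusted p = 0.861). It changed no other call of a member. Array weights gave EPM2A there an unadjusted p under 0.05, the only member among 0 otherwise. EPM2A in muscle kept its direction in all settings (-0.63 to -0.53), with adjusted p-values from 0.000779 (DESeq2) to 0.645 (1 fit). The wider list was counted at an unadjusted p under 0.05 in each setting. In muscle its 7 lower genes became 4 with 1 fit, and 8 with edgeR, DESeq2 or a mean of at least 50. In liver 3 lower became 4 with edgeR, DESeq2 or array weights. There 0 higher became 1 with 1 fit and 2 with array weights. For the difference, the count below 0 ran from 1 with TMM to 5 with array weights, and above 0 from 2 to 4.

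Signs turned for members near 0. PPP1R3C in muscle was -0.11 with edgeR, -0.11 with DESeq2, -0.031 with array weights and -0.21 to 0.38 without 1 sheep. In liver it was -0.057 with array weights and -0.21 to 0.61 without 1 sheep, and its difference between tissues 0.016 with array weights and -0.42 to 0.047 without 1 sheep. GYS2 in liver was -0.0023 with TMM and -0.20 to 0.24 without 1 sheep. GYS1 was -0.44 to 0.022 in liver without 1 sheep, and its difference 0.058 with array weights and -0.46 to 0.14 without 1 sheep. Without 1 sheep GBE1 was -0.096 to 0.33 in muscle, -0.046 to 0.34 in liver and -0.35 to 0.20 for the difference, and PPP1R3A -0.081 to 0.086 in muscle. Of the list, PHKA1 in liver was -0.031 with array weights and -0.046 to 0.14 without 1 sheep. The difference of UGP2 was 0.0042 with TMM, 0.12 with edgeR, 0.082 with DESeq2 and -0.41 to 0.33 without 1 sheep. Without 1 sheep PYGB was -0.22 to 0.11 in liver and -0.044 to 0.21 in muscle, PHKG1 -0.26 to 0.0083 in liver and -0.20 to 0.0021 in muscle, and the difference of PGM1 -0.43 to 0.016. The causes were not tested. Shares per coding length were not run.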

Other observations

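The same 9 sheep gave both tissues, so each member could be followed from liver to muscle. For PPP1R3C, which carries protein phosphatase 1 to glycogen, control sheep 131 was the highest of all sheep in both tissues, with 1994 in liver and 3470.5 in muscle, and control sheep 201 was low in both, with 357 and 764. Over the 9 sheep Pearson's r was 0.739 (exact permutation p = 0.0228) and Spearman's rho 0.700 (exact permutation p = 0.0433). After Benjamini-Hochberg adjustment over the 6 members these exact permutation p-values were 0.137 and 0.130. Without sheep 131 and 201 r was 0.181, so the relation rests on those animals. PYGL had a Spearman's rho of 0.733 (exact permutation p = 0.0311, adjusted 0.130) and a Pearson's r of 0.433 (exact permutation p = 0.241, adjusted 0.482), which was 0.711 without sheep 48 and 185. For GYS1, GBE1, GYG1 and EPM2A the exact permutation p of either measure was at least 0.2017. The 2 sheep left out for each member were those farthest from its median in liver on the log2 scale. The same step moved Pearson's r of GYS1 from 0.156 to 0.613 and of EPM2A from 0.268 to -0.415. For GBE1 it went from 0.469 to 0.492 and for GYG1 from 0.152 to 0.061. The permutations exchanged sheep between the groups, and the PYGL means were lower in treated sheep in both tissues, so a shift shared by the group cannot be told apart from a relation among sheep. Control and treated sheep were pooled here because fewer than 6 sheep of a group had both tissues.

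Among the 10 muscle libraries control sheep 98 was the highest for 4 of 8 members, GYS1, GYG1, PYGM and EPM2A. Treated sheep 48 was the lowest for 3, GYS1, GYG1 and PYGM, and the highest for GBE1. In liver treated sheep 255 was the highest for GYS2 and GBE1 and the lowest for GYS1, and treated sheep 185 was the highest for GYS1 and the lowest for EPM2A.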
